A study of Callithrix jacchus with 6 samples.

Results

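Of the 32323 genes in the deposited table, 99 had no signal in any of 3 adult marmoset livers and were present in all 3 libraries of the marmoset hepatic progenitor cell (MHPC) line. A gene was a member when its FPKM value (the gene's reads scaled to its length in kilobases and to a library size of 1000000 reads) was exactly 0 in each liver and at least 1 in each MHPC library. The 200 genes with the highest mean MHPC level were to be left out, but none of them was at 0 in every liver, so this step removed 0 genes. The members were thus chosen by the FPKM values of the same 6 libraries, and their difference between MHPCs and adult liver tissues is described here and not tested.

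The MHPC line was derived from common marmoset (Callithrix jacchus) fetal liver cells that were infected with a lentivirus expressing the SV40 large T antigen and a green fluorescent protein, and the study asked whether the line has the expression pattern of a hepatic progenitor. RNA sequencing compared 3 libraries of undifferentiated MHPCs with 3 libraries of adult liver tissues. The MHPC libraries were different passages of 1 clone, labelled as passages 15 to 30, so their spread covers culture and passage but not animals. The livers came from separate animals, labelled as 5 to 10 years old, and the series text and the study's methods give other passages and ages. No library number is tied to a passage, an age or an animal. All MHPC libraries share the viral oncogene and growth in culture, and no liver library does, so fetal origin, immortalization, clonal selection and culture cannot be told apart.

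Embryonic patterning genes, such as the HOX, PAX and IRX families, encode transcription factors that set the identity of body regions and organs, and many are shut off in adult epithelia. Hepatic progenitors of the fetal liver can give rise to hepatocytes and to cholangiocytes, the cells of the bile ducts. Fibroblasts in culture are known to keep the HOX code of the body region they were taken from. In a bulk tissue, fewer cells of a type and less RNA per cell cannot be told apart.

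The libraries held between 6501285 and 8450454 reads for MHPCs and between 8670017 and 9682046 reads for livers as recovered from the FPKM values. Every liver library thus held more reads in all than every MHPC library. A gene of the table was identified by an Ensembl identifier, and 41 of the 99 members (41.4%) could be paired with a gene symbol, against 39.6% of all identifiers and 69.7% of the 12181 genes with at least 1 FPKM in every MHPC library. FPKM values set a gene against the rest of its own library, so the groups can differ in scale. On the log2(FPKM + 1) scale the median fold change of the 13620 tested genes was 1.09 in the direction of MHPCs with the values as deposited and 0.03 after median-of-ratios size factors, which are scale factors set by the typical gene. The size factors were 1.54 to 1.58 for MHPC libraries and 0.561 to 0.705 for livers. A typical gene thus had fewer reads in a liver library than in an MHPC library, despite the larger liver totals. Fold changes of genes that are no members are therefore given with size factors too.

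Cell type markers went with the tissue label of the livers and only in part with the label of the line. All 9 hepatocyte markers tested were lower in MHPCs, with a summed level of 133.1 to 143.6 FPKM in MHPCs against 51175 to 85533 in livers. TF, transferrin, made up most of the MHPC sum, and the other 8 markers summed to 8.82 to 10.1 FPKM in MHPCs, and HNF4A, the master regulator of hepatocytes, rested on 1 MHPC read. AFP and KIT, markers used for hepatic progenitors, were at 0 in all MHPC libraries, EPCAM had 4 reads in a single MHPC library, and CD44, CD109, PKM, NCAM1 and JAG1 rose in MHPCs with either scaling. KRT7, a keratin of cholangiocytes and progenitors, was called higher only as deposited (log2 fold change 1.40, limma, adjusted p = 0.00635) and had a log2 fold change of 0.20 with size factors (adjusted p = 0.599). Of 6 markers of stellate cells or fibroblasts, 5 were higher in MHPCs (summed level 2423 to 3318 FPKM against 73.2 to 208.6), and 4 with size factors, where DCN was lower. COL1A1, the main chain of type I collagen, was at 1257, 1800 and 1453 FPKM in MHPCs 1, 2 and 3. All 5 endothelial markers were lower, and the leukocyte markers PTPRC and CD163 were at 0 in MHPCs, as were 2 of 3 neural markers, STMN2 and GFAP. The third, TUBB3, a neuronal tubulin, was at 422.4, 411.9 and 455.2 FPKM in MHPCs 1, 2 and 3 and at 3.18, 70.2 and 8.70 FPKM in livers 1, 2 and 3, with a log2 fold change of 4.92 as deposited (limma, adjusted p = 0.00206) and 3.71 with size factors (adjusted p = 0.0193). The part of these differences in cell type in the members' levels was not tested. SOX9 and SOX17 carried no symbol in the table and were not analysed here.

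Most members were weakly expressed. The mean MHPC level had a median of 3.48 FPKM and ran from 1.19 to 97.5 FPKM, against a median of 17.7 FPKM in the other 12082 genes with at least 1 FPKM in every MHPC library. Of the members, 24 had a mean below 2 FPKM, 42 lay between 2 and 5 FPKM, 17 between 5 and 10 FPKM, and 16 above 10 FPKM. Together they summed to 717.5, 729.1 and 708.9 FPKM in MHPCs 1, 2 and 3, which was 0.117% of all FPKM in these libraries. The contribution of the members to the MHPC transcriptome was thus small and alike in the 3 libraries.

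Weak genes in MHPCs were more often at 0 in every liver than abundant ones. Among genes with a mean MHPC level of 1 to 2 FPKM, 24 of 588 (4.08%) were members, and the share was 2.46% of 1708 genes at 2 to 5 FPKM, 0.893% of 1904 genes at 5 to 10 FPKM and 0.420% of 2383 genes at 10 to 20 FPKM. Only 3 of 2985 genes at 20 to 50 FPKM and 3 of 1352 genes at 50 to 100 FPKM were members. None of 1061 more abundant genes outside the top 200 was. A weak gene is also more often missed at a given depth, and the part of depth in this share was not tested.

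**Figure D1:**
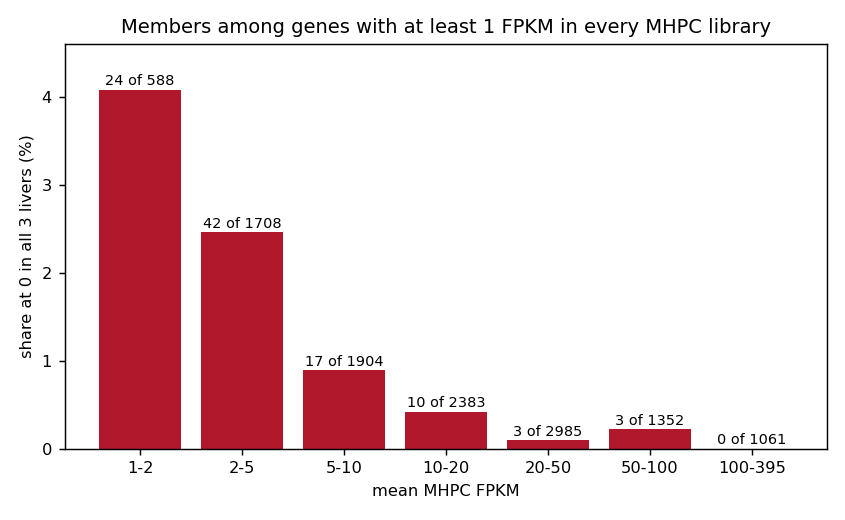
Share of genes at 0 in all 3 livers (vertical axis, percent) among genes with at least 1 FPKM in every MHPC library, in bins of mean MHPC FPKM (horizontal axis), with the number of members and of genes above each bar. The share falls from 4.08% in the lowest bin to 0.222% at 50 to 100 FPKM and 0 of 1061 genes above 100 FPKM, with its lowest value above 0 (0.101%) at 20 to 50 FPKM.

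How firmly a 0 speaks depends on the reads behind the MHPC value. Whole reads and gene lengths could be recovered from the FPKM values, each as the smallest whole number that gave back the values, so the true numbers may be a multiple of those given here. Over the 3 MHPC libraries a member had a median of 64 reads (range 3 to 3325). At least 100 reads supported 37 members and at least 30 supported 65, whereas 34 had fewer than 30 recovered reads, 18 of them fewer than 10. The 6 weakest had 1 recovered read in each MHPC library.

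A count of 0 over all 3 livers allows up to 3 reads, which was taken as the upper limit for the liver level of a gene. This limit holds for a gene named in advance. The members were picked for their liver count of 0, so for them it is a guide and not a strict bound. Against this limit, the 93 members with more than 3 MHPC reads were higher in MHPCs by at least 29.1-fold at the median (range 1.59 to 1358). At least a 10-fold difference was reached by 67 members and at least 100-fold by 18, while 3 members stayed below 2-fold. With size factors the median limit was 12.1-fold (range 0.665 to 567), 52 members were above 10-fold and 15 below 2-fold. These limits cover counting error in the livers only. The MHPC level was taken as observed, so for members with few reads the true fold may lie below the limit. No fold is given for the 6 members with 3 reads, because both groups were then at the floor.

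Members without a symbol were those with the least data. Their median recovered length was 289.5 bases and their median read number 21.5, against 1671 bases and 184 reads for the 41 members with a symbol. In all, 24 members (24.2%) had a recovered length below 150 bases, against 1.85% of the other genes with at least 1 FPKM in every MHPC library, and none of these 24 had a symbol. All 41 members with a symbol had at least 31 reads, and their limits on the fold had a median of 73.6-fold (range 12.6 to 405). With size factors this was 30.7-fold (range 5.26 to 169).

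**Figure D2:**
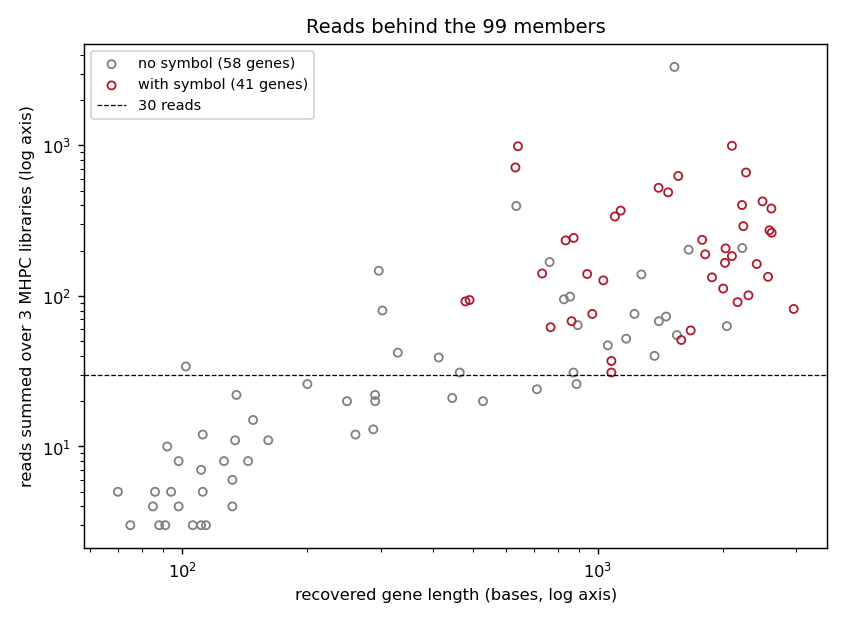
Reads summed over the 3 MHPC libraries (vertical log axis) against recovered gene length in bases (horizontal log axis) for the 99 members, 41 with a gene symbol in red and 58 without in grey. The dashed line marks 30 reads, which all members with a symbol exceed and 34 members without a symbol do not reach. The point at the top is the most abundant member, with 3325 reads.

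All 99 members passed the filter of at least 1 FPKM in at least 3 libraries and were called higher in MHPCs by limma at a Benjamini-Hochberg adjusted p under 0.05, as were 65.2% of all tested genes. Every MHPC library was above every liver library for 67.2% of tested genes. With limma-voom on the recovered reads and size factors, 82 of the 99 members were called. The rule used these same values, so nothing is read from the calls. The median log2 fold change of the members was 2.16 with the values as deposited and 1.69 with size factors, beside 1.09 and 0.03 over all tested genes. These fold changes depend on the pseudocount of 1 and are not limits.

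Transcription factors and chromatin proteins formed the largest group of members with a symbol, with 15 of 41, and they included the most abundant of them after EDN3. The roles were assigned by hand with the values known. PAX8, a paired-box factor of thyroid and kidney development, was at 44.3, 55.1 and 51.0 FPKM in MHPCs 1, 2 and 3, on 714 reads. It was at least 289.6-fold above the limit for livers (at least 120.9-fold with size factors). The highest MHPC library was 1.25 times the lowest, so no library stood apart.

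PAX3 marks progenitors of the neural crest and of skeletal muscle. It was at 13.6, 11.5 and 12.5 FPKM in MHPCs 1, 2 and 3, on 234 reads. The other PAX genes of the table, a list drawn up after the members were known, behaved in different ways. PAX6, a factor of eye and pancreas development, was at 8.23, 6.0 and 7.24 FPKM in MHPCs and had low but detectable levels of 0.262, 0.0603 and 0.397 FPKM in livers 1, 2 and 3. The rise was 2.72 ± 0.19 (SE) on the log2 scale in MHPCs (limma with Benjamini-Hochberg adjustment, adjusted p = 1.62e-05), and 2.05 with size factors. PAX7, the closest relative of PAX3, had 14 reads in MHPCs, all in MHPCs 2 and 3, and 0 in livers. PAX1, PAX2 and PAX4 were at 0 in all 6 libraries and PAX5 had 6 reads in livers only.

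IRX5 and IRX2 belong to the Iroquois homeobox family, which patterns the heart, limb and nervous system. IRX5 was at 15.7, 14.8 and 13.6 FPKM in MHPCs 1, 2 and 3, and IRX2 at 6.41, 5.77 and 5.16 FPKM. Either gene was highest in MHPC 1 and lowest in MHPC 3, with ratios of 1.16 and 1.24 between these libraries. IRX3, the neighbour of IRX5 in the RefSeq gene order, was at 21.5 ± 2.05 FPKM (SD, n = 3) in MHPCs and at 1.10, 1.70 and 0.0680 FPKM in livers 1, 2 and 3, so it was not silent there. It rose by 3.62 ± 0.34 (SE) on the log2 scale (limma, adjusted p = 6.45e-05), and by 2.71 with size factors. IRX4 and IRX6 were at 0 in all 6 libraries.

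SIX4 is a homeobox factor, and EYA1 is a coactivator of such factors in the development of muscle, kidney and sense organs. In MHPCs 1, 2 and 3, SIX4 was at 4.20, 5.86 and 3.81 FPKM and EYA1 at 4.28, 4.40 and 2.86 FPKM. EYA4 missed the rule by a single read. It was at 6.11, 7.08 and 7.43 FPKM in MHPCs on 668 reads, and 1 read was found in liver 3. SIX5 and EYA3 were present in all 6 libraries and were called higher in MHPCs with the values as deposited but not with size factors, where the log2 fold change of SIX5 was -0.18. SIX3 and SIX6 were at 0 in all libraries.

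HMGA2, an architectural chromatin protein of fetal tissues that binds AT-rich DNA, was at 13.9, 13.9 and 13.2 FPKM in MHPCs 1, 2 and 3. HMGA2 had the smallest ratio of highest to lowest MHPC library among members with a symbol, at 1.06. MIXL1, a homeobox factor of the primitive streak, was weaker at 2.79, 3.69 and 4.40 FPKM, on 62 reads. DPF1, a subunit of the neuronal chromatin remodelling complex BAF, had a mean of 5.56 ± 0.976 FPKM, and the zinc finger protein ZNF385D had a mean of 4.67 ± 0.404 FPKM (SD, n = 3).

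**Figure D3:**
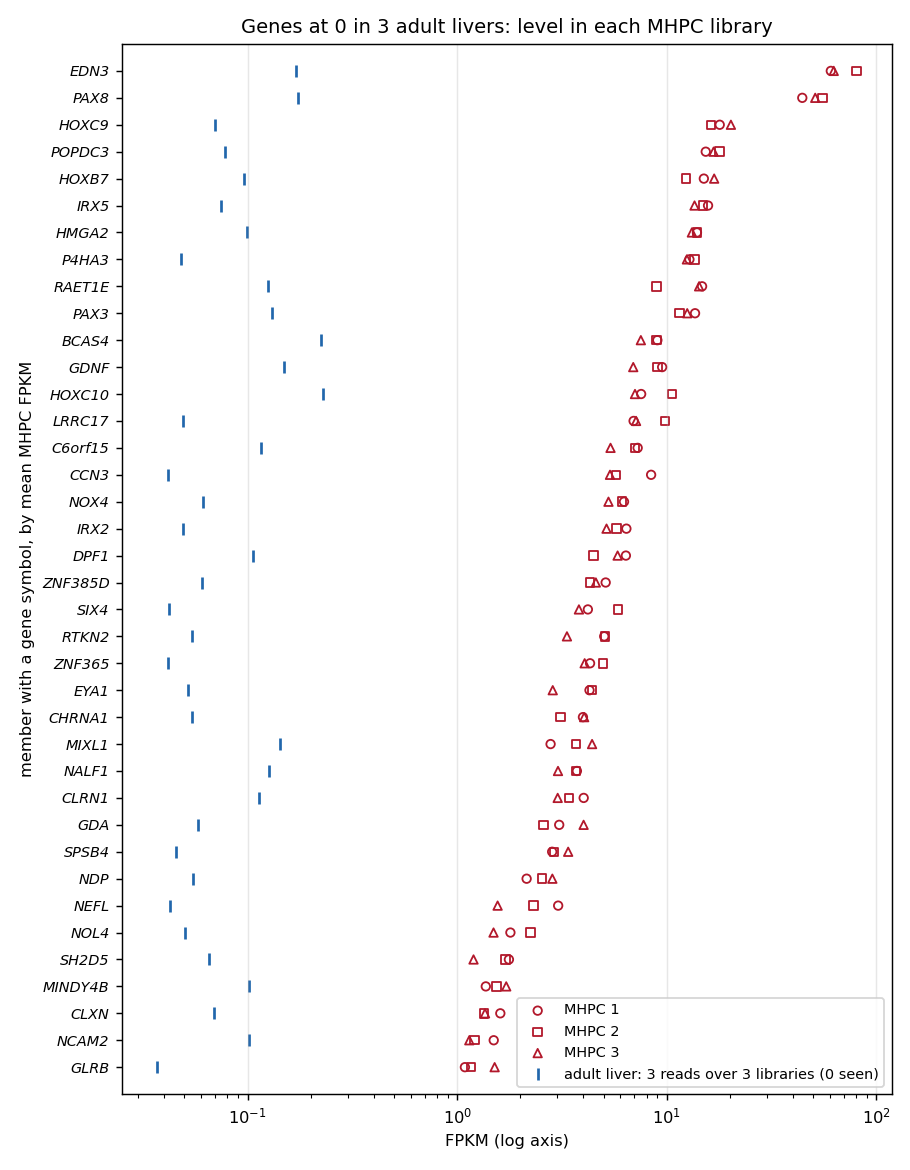
Level in each MHPC library (red symbols, FPKM on a log axis) of 38 members with a gene symbol, ordered by mean, from EDN3 (67.8 FPKM) to GLRB (1.25 FPKM). The blue tick gives the mean liver FPKM that 3 reads over the 3 livers would have had for that gene, the limit allowed by the observed 0. Each gene's red symbols lie well to the right of its tick, by at least 12.6-fold for the mean.

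HOX genes lie in 4 clusters in mammals and are used in the order of their paralog number along the body axis, low numbers toward the head and high numbers toward the tail. The table held 22 HOX genes with a symbol, and 3 of them, HOXC9, HOXB7 and HOXC10, were members. HOXC9 was at 17.9, 16.2 and 20.2 FPKM in MHPCs 1, 2 and 3. HOXB7 was at 15.0, 12.3 and 16.8 FPKM. HOXC10 was at 7.54, 10.6 and 7.05 FPKM, on 92 reads. The order of the libraries was not the same in the 3 genes, since MHPC 2 was lowest for HOXC9 and HOXB7 and highest for HOXC10.

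Of the 22 HOX genes, 11 were tested and all 11 were called higher in MHPCs, also with size factors, beside 65.2% and 31.2% of all tested genes. The 3 members owe this call to the rule and the other 8 do not, because all of these 8 had reads in livers. The median log2 fold change of these 8 genes was 2.95 as deposited and 2.19 with size factors, beside 1.09 and 0.03 over all tested genes. HOXB2 was the most abundant, at 41.6 ± 2.95 FPKM in MHPCs and 1.72 ± 0.757 FPKM in livers (SD, n = 3 each), and it rose by 4.01 ± 0.23 (SE) on the log2 scale (limma, adjusted p = 7.05e-06), and by 2.96 with size factors. HOXB3, HOXA4 and HOXB6 were at 16.8, 16.5 and 12.1 FPKM on average in MHPCs and below 1 FPKM on average in livers.

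The HOX genes are given by paralog number, a split that was chosen after the values were seen. Of 11 genes with paralog numbers 1 to 6, 8 had liver reads, 227 in all, beside 3969 reads in MHPCs. Of 9 genes with numbers 9 to 13, 6 had MHPC reads, 775 in all, and the livers held a single read, from HOXB13. Most of these MHPC reads came from the members HOXC9 and HOXC10, chosen for 0 in livers, and the other 4 genes had 56 MHPC reads, too few to compare their liver level with that of the low numbers. Between them, HOXB7 and HOXD8 had 402 MHPC reads and 1 liver read. HOXB9 and HOXA11 were at 0 in livers like the members but too weak for the rule, with 20 and 29 MHPC reads. HOXC11 and HOXD4, with 5 and 2 MHPC reads, were also at 0 in livers, and HOXB1, HOXD1, HOXD10, HOXC12 and HOXA13 were at 0 in all 6 libraries. HOX genes overlap and resemble each other, and whether reads were counted by strand is not stated, so reads of neighbours in a cluster may be shared.

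**Figure D4:**
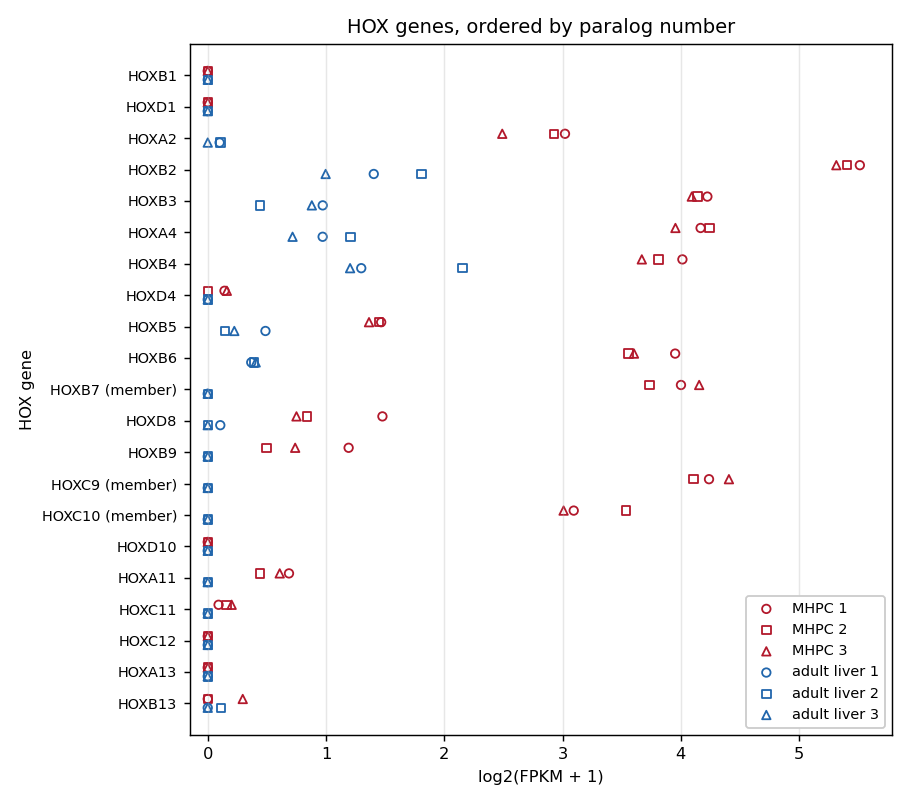
Level of 21 HOX genes with a symbol as log2(FPKM + 1) (horizontal axis) in 3 MHPC (red) and 3 adult liver libraries (blue), ordered from paralog number 1 at the top to 13 at the bottom. Liver symbols leave 0 mainly for the upper genes, HOXA2 to HOXB6, while the members HOXB7, HOXC9 and HOXC10 are at 0 in every liver and between 3.01 and 4.41 in MHPCs.

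The members included 5 secreted proteins, among them the most abundant member with a symbol. EDN3, endothelin 3, is a signalling peptide needed by melanocyte and enteric nerve precursors. It was at 60.6, 80.4 and 62.5 FPKM in MHPCs 1, 2 and 3, on 987 reads, at least 397-fold above the limit for livers (at least 165.7-fold with size factors). MHPC 2 was the highest and the others were alike.

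The receptors of endothelin went in opposite directions. EDNRB, the receptor that EDN3 prefers, was at 30.4, 40.5 and 53.9 FPKM in livers 1, 2 and 3 and at 0.856, 0.918 and 0.702 FPKM in MHPCs, and fell by 4.51 ± 0.23 (SE) on the log2 scale (limma, adjusted p = 4.57e-06). EDNRA rose from 1.14 ± 0.769 to 10.9 ± 1.97 FPKM (SD, n = 3 each), by 2.54 ± 0.32 on the log2 scale (adjusted p = 0.000268). With size factors EDNRB fell by 5.38 and EDNRA rose by 1.67, and both calls held. ECE1, the protease that matures endothelins, was at 62.7 ± 7.36 FPKM in MHPCs and 118.8 ± 48.2 FPKM in livers, and was called lower only with size factors. EDN3 and the receptor it prefers were thus highest in opposite groups.

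GDNF is a growth factor of kidney and nerve that signals through the RET kinase with the co-receptor GFRA1. It was at 9.50, 9.03 and 6.92 FPKM in MHPCs 1, 2 and 3, on 141 reads. GFRA1 was at 46.4, 36.0 and 33.8 FPKM in MHPCs against 9.94, 10.0 and 12.4 FPKM in livers, a rise of 1.75 ± 0.17 (SE) as deposited (limma, adjusted p = 8.35e-05) and of 0.54 with size factors (adjusted p = 0.0267). RET had 1 read in MHPCs and 1024 in livers. RET was not tested, since only 2 livers reached 1 FPKM, at 11.0, 7.61 and 0.950 FPKM in livers 1, 2 and 3. Of the related ligands, ARTN was called higher in MHPCs with either scaling, and PSPN only as deposited.

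NDP encodes norrin, a ligand that activates the Wnt receptor FZD4 together with LRP5 and TSPAN12. It was weak, at 2.14, 2.54 and 2.84 FPKM in MHPCs 1, 2 and 3, on 112 reads. FZD4 was lower in MHPCs, at 1.76 ± 0.305 FPKM against 13.2 ± 1.35 FPKM in livers (SD, n = 3 each), and so was TSPAN12, at 6.79, 6.95 and 7.26 FPKM in MHPCs 1, 2 and 3 against 28.5, 12.4 and 16.3 FPKM in livers 1, 2 and 3 (limma, adjusted p = 2.05e-05 for FZD4 and 0.00551 for TSPAN12). The log2 fold changes were -2.36 and -1.25 as deposited and -3.32 and -2.39 with size factors. LRP5 changed direction with the scaling, with a log2 fold change of 0.55 as deposited and -0.70 with size factors.

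CCN3 and LRRC17 are found outside the cell, CCN3 as a matricellular protein and LRRC17 as a leucine-rich repeat protein. LRRC17 was at 6.94, 9.80 and 7.13 FPKM in MHPCs 1, 2 and 3. CCN3 was at 8.42, 5.71 and 5.36 FPKM and was among the 5 members with the largest ratio between MHPC libraries, 1.57 from MHPC 1 to MHPC 3, counting members with at least 100 reads. Its relatives CCN1 and CCN4 were far more abundant in MHPCs. CCN4 was at 100.8, 121.6 and 71.8 FPKM in MHPCs 1, 2 and 3 on 2251 reads and had 2 liver reads, which kept it outside the rule. CCN5 went the other way, with 2 MHPC reads and 47 liver reads.

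**Figure D5:**
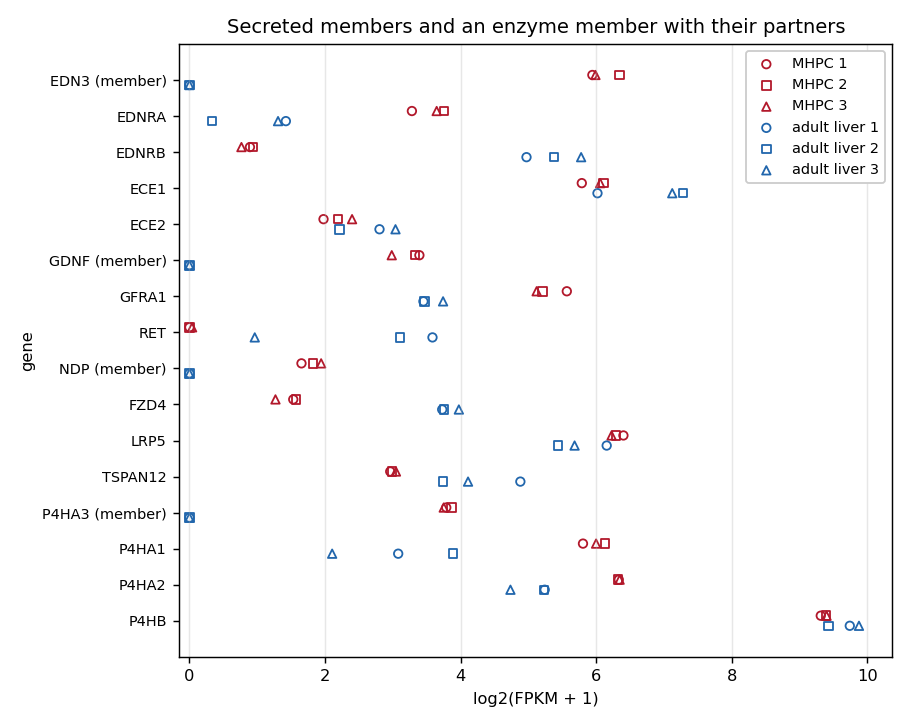
Level as log2(FPKM + 1) (horizontal axis) in 3 MHPC (red) and 3 adult liver libraries (blue) of the secreted members EDN3, GDNF and NDP and the enzyme member P4HA3, each followed by its receptors, processing enzymes or fellow subunits. The liver symbols of EDNRB, RET and FZD4 lie to the right of the MHPC symbols, those of EDNRA, GFRA1 and P4HA1 to the left, while those of LRP5, ECE1 and P4HB lie close to them.

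Among the members were 3 enzymes. P4HA3 is a catalytic subunit of collagen prolyl 4-hydroxylase, which modifies collagen chains so that they form a stable helix. It was at 12.8, 13.6 and 12.5 FPKM in MHPCs 1, 2 and 3, on 661 reads, at least 268-fold above the limit for livers (at least 111.9-fold with size factors). The other catalytic subunits were present in livers. P4HA1 rose from 8.19 ± 5.29 to 62.3 ± 7.10 FPKM (SD, n = 3 each; 2.95 ± 0.42 (SE) on the log2 scale, limma, adjusted p = 0.000467, and 1.77 with size factors). P4HA2 was called higher as deposited but had a log2 fold change of 0.02 with size factors. P4HB, the shared partner subunit, was abundant in both groups, at 659.6 and 827.5 FPKM on average, and was called lower only with size factors. Collagens, the substrates of these enzymes, had 16 of 18 tested genes higher in MHPCs as deposited and 14 with size factors, beside 65.2% and 31.2% of all tested genes, and none of the 40 collagen genes in the table was a member.

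NOX4 is an NADPH oxidase that makes hydrogen peroxide and is known from kidney and from activated fibroblasts. It was at 6.25, 6.11 and 5.27 FPKM in MHPCs 1, 2 and 3, on 236 reads. CYBB, the oxidase of phagocytes, was the reverse, at 0 in all MHPC libraries and 39.7, 65.1 and 28.3 FPKM in livers 1, 2 and 3. GDA, guanine deaminase, which breaks down guanine, was at 3.07, 2.58 and 4.01 FPKM in MHPCs.

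Another 8 members encode membrane proteins. POPDC3, a cAMP-binding Popeye domain protein of muscle, was at 15.3, 17.8 and 16.7 FPKM in MHPCs 1, 2 and 3, on 523 reads. RAET1E, a ligand of the natural killer cell receptor NKG2D, was at 14.7, 8.94 and 14.3 FPKM, with MHPC 2 low. RAET1E belongs to a family of similar genes, so its reads may be shared with relatives. CHRNA1, the alpha subunit of the muscle acetylcholine receptor, had a mean of 3.71 ± 0.523 FPKM (SD, n = 3).

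The remaining membrane proteins were weaker. NALF1, an auxiliary subunit of the sodium leak channel, was at 3.72, 3.70 and 3.03 FPKM, and CLRN1, clarin 1 of sensory hair cells, at 4.01, 3.42 and 3.02 FPKM. NCAM2, an adhesion molecule of olfactory neurons, rested on 31 reads with a mean of 1.28 FPKM, and GLRB, the beta subunit of the glycine receptor, had the lowest mean of the members with a symbol, 1.25 FPKM. NCAM1, the close relative of NCAM2, was at 99.9 ± 11.2 FPKM in MHPCs and 6.38 ± 0.260 FPKM in livers (SD, n = 3 each).

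The last 10 members with a symbol had other roles. NEFL, the light neurofilament chain of axons, was at 3.03, 2.31 and 1.56 FPKM in MHPCs 1, 2 and 3 and had a ratio of 1.94, the largest of the members with a symbol. NEFM, its partner chain and neighbour in the gene order, was at 4.57, 1.79 and 1.87 FPKM in MHPCs on 126 reads and had 3 liver reads. CLXN, calaxin of motile cilia, had a mean of 1.44 FPKM on 51 reads. The signalling proteins inside the cell numbered 3. RTKN2 had a mean of 4.48 FPKM, SPSB4, a substrate adaptor of a ubiquitin ligase, had 3.04 FPKM, and SH2D5, an SH2 domain adaptor, had 1.55 FPKM. BCAS4, C6orf15, ZNF365, NOL4 and MINDY4B had means of 8.48, 6.56, 4.44, 1.84 and 1.54 FPKM.

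The most abundant of all members had no symbol. ENSCJAG00000019799 was at 105.5, 89.9 and 97.1 FPKM in MHPCs 1, 2 and 3, on 3325 reads over 1527 bases, at least 1358-fold above the limit for livers (at least 567-fold with size factors). Among members without a symbol, ENSCJAG00000018828 followed at 27.0, 28.5 and 27.8 FPKM. ENSCJAG00000035769 was at 14.4, 22.3 and 30.6 FPKM, and its ratio of 2.12 between MHPCs 3 and 1 was the largest of all members with at least 100 reads. Of the 58 members without a symbol, 24 had at least 30 reads and 7 had at least 100. No name or function was assigned to these genes.

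Members varied among the MHPC libraries about as much as other genes with the same number of reads. The SD of log2(FPKM + 1) over the 3 MHPC libraries had a median of 0.21 in members and 0.12 in the other genes with at least 1 FPKM in every MHPC library. Within bins of reads the gap closed. With fewer than 10 reads the median coefficient of variation was 34.9% in 18 members and 38.2% in other genes. With 10 to 30 reads it was 28.4% in 16 members and 31.1% in others. With 30 to 100 reads the median coefficient of variation was 20.2% in 28 members and 20.3% in other genes, with 100 to 300 reads it was 14.1% in 23 members and 14.5% in others, and with 300 to 1000 reads it was 7.57% in 13 members and 9.14% in others. The highest value of a member was in MHPC 1 for 36 genes, in MHPC 2 for 31 and in MHPC 3 for 32, and among those with a symbol the counts were 18, 14 and 9. The rule required a value of at least 1 FPKM in every MHPC library, so nothing is read from this split. The highest MHPC library was less than 2 times the lowest in 83 of the 99 members and in all 41 with a symbol.

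The limits of the rule cut through a continuous range of values. Just inside was ENSCJAG00000027593, with a lowest MHPC value of 1.02 FPKM on 4 reads. Just outside was DMRTA1, with a lowest MHPC value of 0.997 FPKM on 113 reads, followed by the serotonin receptor gene HTR1B at 0.989 FPKM and MPPED2 at 0.977 FPKM. In all, 61 genes at 0 in every liver had a lowest MHPC value between 0.5 and 1 FPKM, and 31 members had one between 1 and 1.5 FPKM.

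A single liver read was enough to leave out genes that were much stronger in MHPCs than most members. Among genes with at least 1 FPKM in every MHPC library, 106 had exactly 1 read over the 3 livers. TFAP2C, a factor of neural crest and trophoblast, was at 45.3 FPKM on average in MHPCs on 1711 reads. CRABP1, a retinoic acid binding protein, was at 30.3 FPKM, the T-box factor TBX1 at 23.0 FPKM, the growth factor BMP7 at 20.5 FPKM and CDH6, a cadherin of kidney and neural crest, at 10.3 FPKM. A further 77 genes had 2 liver reads, 90 had 3 and 418 had 4 to 10.

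The lists of pathways and markers, apart from the lists of relatives made from the members themselves, held few members. Members were 0.813% of all genes with at least 1 FPKM in every MHPC library, so lists of this size are too short to read anything from their count of members. The lists of hepatic progenitor markers, Wnt, Notch and Hedgehog genes, mesenchymal transcription factors, cadherins, collagens and cell cycle genes held no member, and the HOX list held 3. In these lists, 6 of 7 tested progenitor markers, 20 of 21 cell cycle genes, 8 of 9 mesenchymal transcription factors, 7 of 11 Notch genes and 3 of 5 Hedgehog genes were called higher in MHPCs, beside 65.2% of all tested genes. With size factors these counts were 5, 20, 6, 4 and 3, beside 31.2%. Lower in MHPCs were 1 progenitor marker, 3 Notch genes, 1 Hedgehog gene and none of the tested cell cycle genes and mesenchymal transcription factors as deposited, beside 15.4% of all tested genes. With size factors 1 progenitor marker, 4 Notch genes, 2 Hedgehog genes and 1 mesenchymal transcription factor were lower, beside 31.1%. Of 14 tested Wnt genes, 6 were higher and 5 lower as deposited, and 5 higher and 8 lower with size factors. Of 14 cadherins, 9 were higher and 5 lower, and 7 and 5 with size factors.

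The neighbours of the members were looked up in the table. In the RefSeq order of protein-coding genes (assembly calJac240_pri, used for order only), 40 members with a symbol were found, and 39 of their 80 neighbour places held a gene with no matching symbol in the table and no value. RTKN2 and ZNF365 were neighbours and both members, and so were CLRN1 and MINDY4B. Of 37 other neighbours that the table held, 6 (16.2%) were at 0 in every liver, beside 9.61% of all genes with a symbol, and 20 had at least 1 FPKM on average in livers. Of these 6, IRX4, IRX6, FOLH1, TYR and GRIA2 were at 0 in MHPCs too, and HOXC11 had 5 MHPC reads. The share is thus not one of neighbours expressed in MHPCs and silent in livers. EPHA4, next to PAX3, was at 16.4 FPKM in MHPCs and 0.231 FPKM in livers, and HOXB6, next to HOXB7, at 12.1 and 0.309 FPKM. ENPP2, next to CCN3, was the reverse, at 0.373 and 40.9 FPKM.

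The mirror image of the rule found more genes. At 0 in every MHPC library and at least 1 FPKM in every liver were 335 genes, of which 196 had a symbol. They rested on more reads than the members, with a median of 447 liver reads and 11.8 FPKM, and 316 of the 335 had at least 30 reads. The liver libraries held more reads in all but fewer for a typical gene, so the counts of the opposite sets are given side by side and not compared by a test.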

How the data were processed

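Total RNA of 3 MHPC samples and 3 adult livers was made into libraries with a kit whose strand use is not stated, and sequenced as single-end Illumina reads. The submitters' processing notes name TopHat2 2.0.9, Bowtie2 2.0.6 and HTSeq 0.6.1, and the genome build and annotation are not given in the sources used here. The authors deposited 1 table, in FPKM, and tested counts with DESeq. All 6 columns were used, 0 columns belonged to no sample, and groups and numbers came from the sample titles.

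The rule for members was applied to the deposited values with pandas 2.3.3 and numpy 2.4.6 (Python 3.11.15). The background comparison was limma 3.58.1 in R 4.3.3 on log2(FPKM + 1), moderated by eBayes with its trend option, over 13620 genes with at least 1 FPKM in at least 3 libraries, and Benjamini-Hochberg adjustment at 0.05. It differs from the authors' test because FPKM values are not counts. Fold changes on this scale understate changes of weak genes. P-values measure the spread between passages of 1 clone and between livers.

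The whole reads, gene lengths and library sizes behind the FPKM values were solved for as whole numbers, and they gave back 100% of the values above 0 within a relative rounding error of 3e-09 plus 6e-10 FPKM. Between 99.6% and 99.7% of the recovered reads lay on listed genes. Recovery and comparison were tested on simulated data. A gene table paired 12816 of 32323 identifiers with symbols. No genome or sequence table was used, so no sequence is shown. Some genes counted among the members and lists are not reported here by name.

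The members and lists were chosen with earlier results of these data known. The genes named were the 10 highest members with a symbol, the 5 with the largest ratio between MHPC libraries among those with at least 100 reads, and members in the gene lists, at most 20. The other members with a symbol, their relatives and their neighbours were named after their values were seen. Alternatives were other FPKM limits, pseudocounts, filters and scalings, a read minimum, limma-voom on the recovered reads, the replicate number as a block and leaving out each library. Limma-voom with size factors was added after seeing the data.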

Additional observations from a re-analysis of the deposited data

How the results depend on the processing

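The number of members depended on the limits. It was 99 as reported, 160 with a lower limit of 0.5 FPKM, 57 with 2 FPKM, 196 with under 0.1 FPKM in each liver, 65 with at least 30 MHPC reads and 66 with size factors. Leaving out a library gave 126 to 159 members, and each liver moved the count by over 1.5 times, to 159 without liver 1, 153 without liver 2 and 154 without liver 3. Under all 12 alternative rules, 47 members remained, 33 of them with a symbol. Only the limit of 2 FPKM, the minimum of 30 reads and the size factors could remove a member. The other rules only loosened the limits, so they say nothing about stability. The median log2 fold change of the members, 2.16, was 5.15 with a pseudocount of 0.1, 1.69 with size factors, 2.50 with at least 30 reads and 2.16 to 2.18 without single libraries, so its size rests on the pseudocount. The median SD of members among MHPC libraries, 0.21, was 0.14 to 0.16 without single MHPC libraries, with the lowest value, 0.14, without MHPC 2. The median length was 857 bases and 1368 bases with at least 30 reads.

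Over all genes, 8878 were higher and 2099 lower in MHPCs. Size factors gave 4246 and 4238, quantile normalization 5634 and 3480, and limma-voom with size factors 4249 and 4294. Leaving out single libraries gave 8261 to 8893 higher and 1896 to 2325 lower genes. Limma-voom with size factors called 82 of the 99 members higher, and each of the other alternatives called all 99. The rule used the values tested, so calls that held say nothing about stability.

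The groups share replicate numbers, but the deviations of equally numbered libraries were not correlated (r = -0.0127, -0.00189 and -0.0746 across genes), so a shared number pairs no libraries. With the replicate block, 8690 genes were higher and 2072 lower. Depth limits the 34 members with fewer than 30 recovered reads. The 28 of them above the floor had a median limit on the fold of 4.55 (range 1.59 to 10.5).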
